A study of Bubalus bubalis with 12 samples.

Results

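The contractile apparatus of smooth muscle was followed through 10 genes in the ruminal wall of Italian Mediterranean dairy buffaloes (Bubalus bubalis), namely ACTA2, ACTG2, MYH11, DES, TAGLN, CNN1, MYLK, LMOD1, SYNPO2 and SMTN. They were taken by symbol from a table of 34037 genes, and each symbol named 1 gene of that table. The control group held 6 adult buffaloes on a total mixed ration (TMR), and the treated group 6 adult buffaloes on TMR with green ryegrass, about 30% of the diet. The treated ration also held less corn silage and alfalfa hay, no soybean meal, more fat and a higher share of forage. Green ryegrass and these other changes cannot be told apart here. The trial ran for 60 days after 14 days of adaptation, the diets supplied like amounts of nitrogen and energy, and the groups had been balanced for parity and milk yield. Frozen wall tissue was taken once from each animal after slaughter, so no animal was measured before the green feed. The wall layers held by that tissue are not given in the sources used here.

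The rumen mixes its contents by contractions of the smooth muscle coat that lies beneath a stratified, keratinised epithelium. In a smooth muscle cell, calcium bound to calmodulin switches on myosin light chain kinase, phosphorylated myosin then pulls on actin filaments, and the filaments pass the force to dense bodies, intermediate filaments and the membrane. The 10 genes encode parts of this machinery and are widely read as marks of differentiated smooth muscle. In bulk tissue such genes can also follow how much muscle a sample holds, though SMTN did not move with the others in these samples.

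Sequencing gave 10531245 to 12947982 counted fragments per animal, and the values are FPKM, fragments counted for a gene, divided by its length and by the depth of the animal. Little of this came from smooth muscle. Summed over the 9 genes other than SMTN, the level ran from 14.6 to 34.8 FPKM in the control animals, with a median of 24.8, and from 5.16 to 25.9 FPKM in the treated animals, with a median of 13.0. These sums rested on 182 to 1082 fragments per animal, between 0.00152% and 0.00861% of those counted. By contrast, 9 keratinocyte genes of the ruminal epithelium summed to 3424 to 5697 FPKM in the control and 3875 to 6253 FPKM in the treated animals. Genes of striated muscle were low. Of 11 listed in the table, 5 (TNNI1, TNNC2, MYLPF, MYBPC1 and NEB) had at most 3 fragments in every animal. The 3 highest in mean were CKM, TNNI2 and ACTA1, up to 1.22, 0.434 and 0.617 FPKM. CKM lay above LMOD1 and SYNPO2, which are among the 10 genes, in both group means. In bulk tissue, fewer smooth muscle cells and less RNA of these genes per cell cannot be told apart.

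Of the 10 genes, 7 passed the filter on low values and were tested among 12642 genes, while ACTG2, CNN1 and LMOD1 had too few fragments. Only DES reached a nominal p below 0.05, in the direction of lower expression in treated animals. Over all genes tested, the nominal threshold was passed by 157, which is 1.24%, and by 57 in the lower direction, which is 0.451%. No gene passed the threshold after Benjamini-Hochberg adjustment (0%) in limma, where the smallest adjusted p was 0.9997, and none did in voom, in which 144 genes had a nominal p below 0.05. The mean log2 level was lower in the treated group for all 10 genes, SMTN by next to nothing, against 48.7% of the genes tested. ACTG2, CNN1 and LMOD1 are not among the genes behind that share. The 10 were chosen with earlier results of these data known. Those other than SMTN also moved together from animal to animal, so the count does not hold 10 separate results. The 10 log2 fold changes had a median of -0.84, beside 0.0053 over all genes tested. None of the 10 had groups that did not overlap, which held for 7 genes or 0.0554% of those tested.

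**Figure D1:**
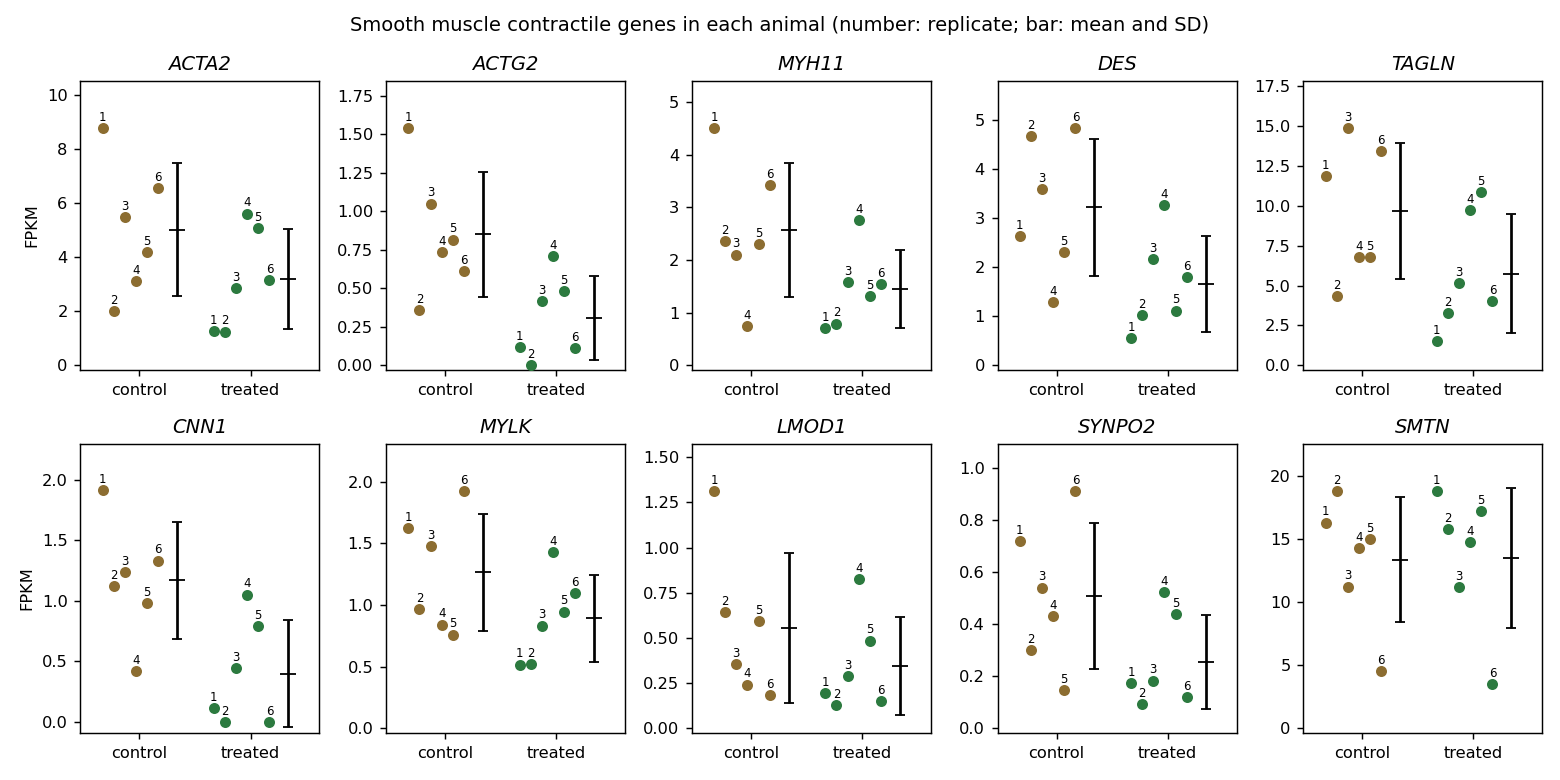
FPKM (linear axis, a scale of its own for each gene) of the 10 smooth muscle contractile genes in the 6 control and the 6 treated animals, each point an animal with its replicate number, and the bar beside each group its mean and SD. Controls 1, 3 and 6 lie high and treated animals 1 and 2 low for most genes, the groups overlap in every panel, and SMTN has its lowest points in control 6 and treated 6.

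The filament proteins that carry the contraction came first. MYH11 (gene 102405805) encodes the heavy chain of smooth muscle myosin, the motor itself. Its level ran from 0.753 FPKM in control 4 to 4.50 in control 1, with a median of 2.33, and from 0.712 to 2.76 FPKM in the treated animals, with a median of 1.43. The groups overlapped widely, and 5 of 6 treated animals lay below the control median. The group means were 2.57 ± 1.27 and 1.45 ± 0.740 FPKM (SD, n = 6 each), and the fold change was -0.78 on the log2 scale (standard error, SE, 0.42), with a nominal limma p of 0.0812. Over the omissions of 1 animal the limma p was 0.00754 to 0.184 and stayed above 0.05 in 10 of 12. Without control 4, the control animal lowest in MYH11, the fold change was -1.10 with a limma p of 0.00754, and without treated 4, the highest treated animal, it was -0.997 with a limma p of 0.0299.

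ACTA2 (gene 102408421), the smooth muscle alpha actin of the thin filament, ran from 2.01 to 8.78 FPKM in the control group, with a median of 4.85, and from 1.25 to 5.62 in the treated group, with a median of 3.01. Treated animals 1 and 2 were below every control, and treated 4 and 5 were above the control median. The log2 fold change was -0.72 (SE 0.44), with a limma p of 0.119. Over the omissions of 1 animal the fold change ran from -0.96, without control 2 and with a limma p of 0.0417, to -0.50, without treated 2 and with a limma p of 0.262, and 1 of 12 passed 0.05.

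ACTG2 (gene 102396917), the gamma actin typical of gut smooth muscle, was far scarcer. It was counted at 27, 6, 19, 13, 14 and 9 fragments in control animals 1 to 6, and at 2, 0, 7, 12, 8 and 2 in treated animals 1 to 6. All 6 treated animals lay below the control median of 0.775 FPKM, and 3 of them had at most 3 fragments, too few to be told from 0. The treated mean of 0.307 ± 0.273 FPKM was 36.1% of the control mean of 0.851 ± 0.406 (SD, n = 6 each), from 31 fragments in all against 88. A two-sided exact permutation test on the log2 values gave p = 0.0238, not adjusted over the members. Without control 1 or control 3 the same test gave 0.0649 and 0.0584.

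The proteins that sit on the thin filament and tune it were CNN1, TAGLN, LMOD1 and SMTN. CNN1 (gene 102405865) encodes calponin, which binds actin and slows the myosin cycle. The fragments were 36, 20, 24, 8, 18 and 21 in control animals 1 to 6 and 2, 0, 8, 19, 14 and 0 in treated animals 1 to 6. Again all treated animals were below the control median, and treated animals 1, 2 and 6 had at most 3 fragments. The treated mean of 0.399 ± 0.443 FPKM was 34.2% of the control mean of 1.17 ± 0.487 (SD, n = 6 each), with 43 fragments against 127. The exact permutation p was 0.0238, again not adjusted over the members. The p was 0.0649, 0.0606, 0.0628, 0.0541 and 0.0628 without control 1, 2, 3, 5 or 6, in turn. No log2 fold change is given for CNN1 and ACTG2 as a size, since with animals at 0 it follows the value added before taking the log.

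In a limma fit over all 22972 genes above 0 in any animal, 3 of the 10 genes had a nominal p below 0.05, CNN1 at 0.0183, ACTG2 at 0.0260 and DES at 0.0295, against 2.45% of the genes in that fit. The adjusted p of each was 0.9998.

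TAGLN (gene 102397568) encodes transgelin, an actin cross-linker of smooth muscle. After SMTN it was the most abundant of the 10, from 4.32 to 14.8 FPKM in the control and from 1.52 to 10.8 FPKM in the treated animals, with medians of 9.29 and 4.59. Controls 1, 3 and 6 were above every treated animal, and treated 1, 2 and 6 were below every control. The log2 fold change was -0.90 (SE 0.45), with a limma p of 0.0645. It passed 0.05 in 3 of 12 omissions, without control 2, at a limma p of 0.0289, without treated 4, at 0.0281, and without treated 5, at 0.0214, and was -0.58 with a limma p of 0.157 without treated 1.

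LMOD1 (gene 102405165), a leiomodin that starts new actin filaments, had 5 to 43 fragments in the control and 4 to 26 in the treated animals. Its medians were 0.475 and 0.240 FPKM, the ranges overlapped widely, and the highest values were those of control 1 and treated 4. The difference of the mean log2 values was -0.68, with an exact permutation p of 0.271.

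SMTN (gene 102408924) encodes smoothelin, which binds actin filaments. It was the most abundant of the 10 per length and did not differ between the diets beyond its spread. The range was 4.56 to 18.8 FPKM in the control and 3.47 to 18.8 FPKM in the treated animals, with medians of 14.7 and 15.3. The log2 fold change was -0.03 (SE 0.42), with a limma p of 0.935, and its sign turned when any 1 of several animals was left out, up to 0.32 without treated 6.

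DES, MYLK and SYNPO2 stand for the intermediate filaments, the switch and the dense bodies. DES (gene 102410291) encodes desmin, the intermediate filament of muscle. It had 4.68 FPKM in control 2 and 4.83 in control 6, 3.59 in control 3, 2.64 in control 1, 2.31 in control 5 and 1.29 in control 4. In the treated group it had 3.26 FPKM in animal 4, 2.17 in animal 3, 1.81 in animal 6, 1.12 in animal 5, 1.03 in animal 2 and 0.554 in animal 1. Controls 2, 3 and 6 were above every treated animal, 3 treated animals were below every control, and the rest overlapped. The means were 3.22 ± 1.40 and 1.66 ± 0.976 FPKM (SD, n = 6 each), and the log2 fold change was -1.04 (SE 0.42), with a limma p of 0.0271 and an adjusted p of 0.9997. The two-sided exact permutation test gave p = 0.0519. The limma p was above 0.05 without control 2, 3 or 6 (0.0616, 0.0512 and 0.0629) and without treated 1, 2 or 5 (0.0651, 0.0555 and 0.0519), while the fold change stayed between -1.28 and -0.77 over all 12 omissions.

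The oligos that the study designed to measure DES and MYH11 by rt-qPCR are shown because they mark the pair of genes of this apparatus that it followed by a further assay. With edgeR and its nominal threshold, the study called DES, MYH11 and SYNPO2 lower in treated animals. It reported rt-qPCR patterns of the same direction, in the same samples, for the edgeR genes that it assayed. Each oligo is 20 nt long with a GC content of 55%, and the rt-qPCR values were not analysed here. The oligos read, 5′ to 3′ and in lower case throughout, with Fw for forward and Rv for reverse:
DES_Fw: atctcggaagcggaggaatg
DES_Rv: ctcactagcaaagcggtcct
MYH11_Fw: cctggtcgtcgatttggaca
MYH11_Rv: ctctgtccctttcatccgca

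MYLK (gene 102402899), the kinase that phosphorylates the myosin light chain, varied least among the 10. It ran from 0.758 to 1.92 FPKM in the control and from 0.515 to 1.43 FPKM in the treated animals, with medians of 1.22 and 0.888. Treated 1 and 2 were below every control. The log2 fold change was -0.51 (SE 0.32), with a limma p of 0.138, and no omission of an animal brought it below 0.05.

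SYNPO2 (gene 102409549) encodes synaptopodin 2, an actin-bundling protein of dense bodies and Z-discs. It was the scarcest of the 7 members tested, at 0.146 to 0.913 FPKM in the control and 0.0912 to 0.523 FPKM in the treated animals, with medians of 0.487 and 0.177. Control 5 was among the low values, and treated 4 and 5 were near the control median. The log2 fold change was -1.03 (SE 0.53), with a limma p of 0.0744. It passed 0.05 in 3 of 12 omissions, without control 5, at a limma p of 0.0207, without treated 4, at 0.0313, and without treated 5, at 0.0428, and was -0.82 with a limma p of 0.160 without control 6.

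In order of level per length, the control means were highest for SMTN, then TAGLN, ACTA2, DES, MYH11, MYLK, CNN1, ACTG2, LMOD1 and SYNPO2. The treated order was the same apart from LMOD1 and ACTG2, which changed places. In both groups all 9 neighbouring pairs overlapped in mean ± SD.

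For 6 of the 10 genes, a relative that is not among the contractile genes was measured in the same animals. ACTG1, a cytoplasmic actin, stood 932-fold above ACTG2 in mean FPKM, ACTB 153-fold above ACTA2, MYH9 33.7-fold above MYH11, VIM 28.4-fold above DES, TAGLN2 15.0-fold above TAGLN and CNN2 12.6-fold above CNN1. These relatives had log2 fold changes between diets close to 0, from -0.12 for VIM to 0.18 for TAGLN2. Set against its relative within each animal, ACTG2 was lower in treated animals (exact permutation p = 0.0216), as was CNN1 (exact permutation p = 0.0368). None of the exact p of these 6 ratios was adjusted. The difference was -0.92 on the log2 scale for DES against VIM (exact permutation p = 0.0584), -1.08 for TAGLN against TAGLN2 (0.102), -0.75 for MYH11 against MYH9 (0.255) and -0.64 for ACTA2 against ACTB (0.301). The ACTG2 and CNN1 fragments are few beside those of ACTG1 and CNN2, so reads placed on the wrong relative could weigh on them, and this was not tested.

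**Figure D2:**
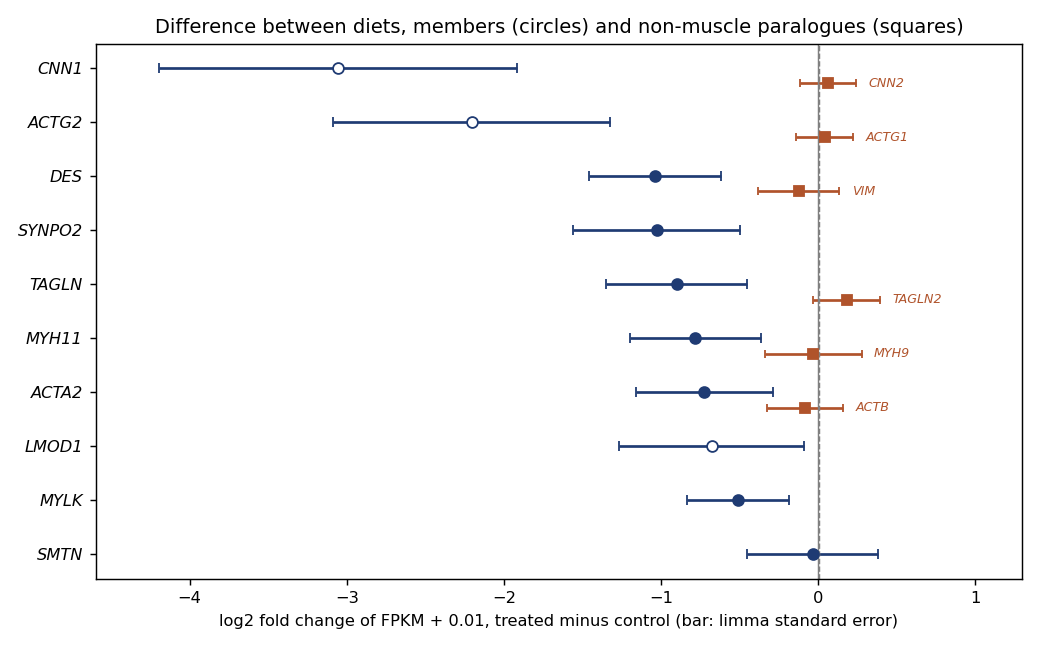
Log2 fold change of FPKM + 0.01, treated minus control, with the limma standard error as bars, for the 10 genes (circles, open for CNN1, ACTG2 and LMOD1, fitted with all genes above 0) and for 6 non-muscle relatives (squares), with a solid line at 0 and a dashed line at the median of all genes tested, 0.0053. The members apart from SMTN lie at -0.51 or lower, with the positions of CNN1 and ACTG2 set in part by the 0.01 added, and the relatives lie between -0.12 and 0.18.

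Whether a member differed beyond what the 10 shared was tested on its log2 level minus the mean of the other 9 in the same animal. The exact p of these 10 comparisons were not adjusted. CNN1 was lower in treated animals by this measure (exact permutation p = 0.0173), and without control 1, 2, 3, 5 or 6 its p was 0.0649, 0.0693, 0.0649, 0.0649 and 0.0649. ACTG2 had an exact permutation p of 0.0519, and it passed 0.05 without control 2 (0.0216) or treated 3, 4 or 5 (0.0281, 0.0325 and 0.0368). For the other 8 members the exact permutation p was between 0.104 and 0.905. MYLK, at 0.104, fell to 0.0498 without treated 5. With CNN1 and ACTG2 at 0 in some animals, the value added before the log moves every one of these differences, since these genes enter the mean of the others. With 0.1 or 1 added, alternatives chosen after seeing the data, CNN1 remained lower (exact permutation p = 0.0173 and 0.0130), ACTG2 had an exact permutation p of 0.0563 and 0.541, and the DES difference turned from 0.06 to -0.16 and -0.26.

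Animals on the same diet differed widely in these genes. Between the lowest and the highest of 12 animals, the genes other than ACTG2 and CNN1 spanned 3.74-fold for MYLK to 10.3-fold for LMOD1. Within groups, the SD of log2 FPKM was 0.57 to 2.22 over the 10 genes, beside a median of 0.36 over the genes tested. Among the genes tested these SDs ranked between the 77.5th percentile for MYLK and the 99.3rd for CNN1. By mean level, SMTN ranked at the 65.2nd percentile of the genes tested and the other 9 between the 1.84th and the 49.2nd. Control 1 was among the top 3 of 12 animals for 8 of the 9 genes other than SMTN, control 6 for 7 and control 3 for 6. Treated 2 was among the lowest 3 for all 9 and treated 1 for 7.

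These 9 genes moved together from animal to animal, and SMTN did not move with them. As a description over 12 animals, which share library and depth within each animal, Pearson's r of log2 FPKM over the 36 pairs without SMTN was 0.41 to 0.92 with a median of 0.67, and 32 pairs were above 0.5. The highest was that of ACTA2 and TAGLN. With the group means removed the median was 0.58, and 24 pairs were above 0.5. In the 9 pairs with SMTN, r was -0.45 to 0.49, with a median of -0.17.

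**Figure D3:**
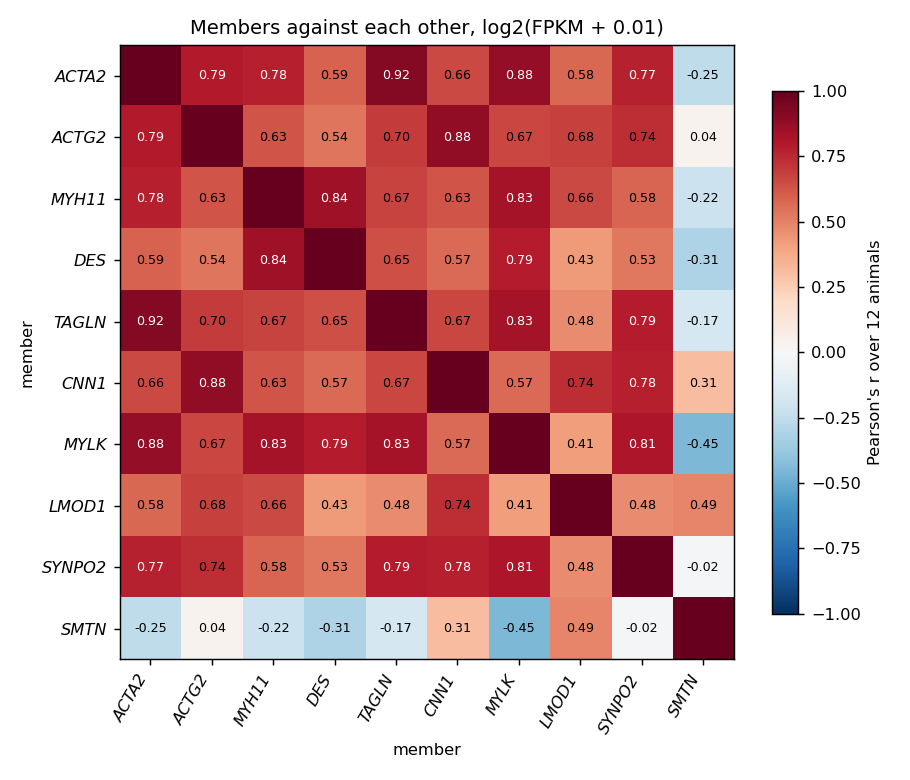
Pearson's r of log2(FPKM + 0.01) over 12 animals for each pair of the 10 genes (rows and columns, colour from -1 to 1, values printed in the cells). The 9 genes other than SMTN form a block of r between 0.41 and 0.92, while the SMTN row and column lie between -0.45 and 0.49.

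SMTN moved with the summed keratinocyte genes instead, though not with each of them. Its log2 FPKM rose with the log2 of the summed keratinocyte genes over 12 animals, with Pearson's r = 0.863 (permutation p = 0.00016, adjusted over 10 relations 0.0016) and Spearman's rho = 0.825 (permutation p = 0.00161, adjusted 0.0161). Within the 6 control animals r was 0.921 (exact permutation p = 0.0153), and within the 6 treated animals it was 0.891 (exact permutation p = 0.00417). Control 6 and treated 6, lowest in both measures, were farthest from the median, and without them r was 0.809. Control 6 also had the fewest counted fragments, 10531245, and treated 6 the fewest genes above 0, 17766. The mitochondrial gene COX1 took its highest shares of fragments in treated 6 (6.306%), control 6 (6.286%) and treated 3 (6.282%). The part of these library traits in the relation was not tested. Control 6 and treated 6 carry the same replicate number in the sample descriptions. In a fit with that number as a block, the SE of the SMTN fold change was 0.11, against 0.42 without it. SMTN was at 4.56 FPKM in control 6 and 3.47 in treated 6, and at 11.2 FPKM or more in every other animal. How far the smaller SE rests on this low pair was not tested. Whether the relation to the keratinocyte genes follows something shared by number was not tested. KRT5, 30.0% of the summed level, had an r of 0.958 with SMTN and PKP1 one of 0.969, given as descriptions over 12 animals. KRT15, TP63 and DSP had r of 0.637, 0.663 and 0.646, IVL 0.161 and KRT4 0.329. The remaining genes of the list ran the other way, DSG3 with r of -0.597 and its highest level, 971 FPKM, in control 6, and PERP with r of -0.336 and its highest level, 941 FPKM, in treated 6. For the other 9 genes r was -0.552 for MYLK to 0.423 for LMOD1, with adjusted permutation p of at least 0.321.

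**Figure D4:**
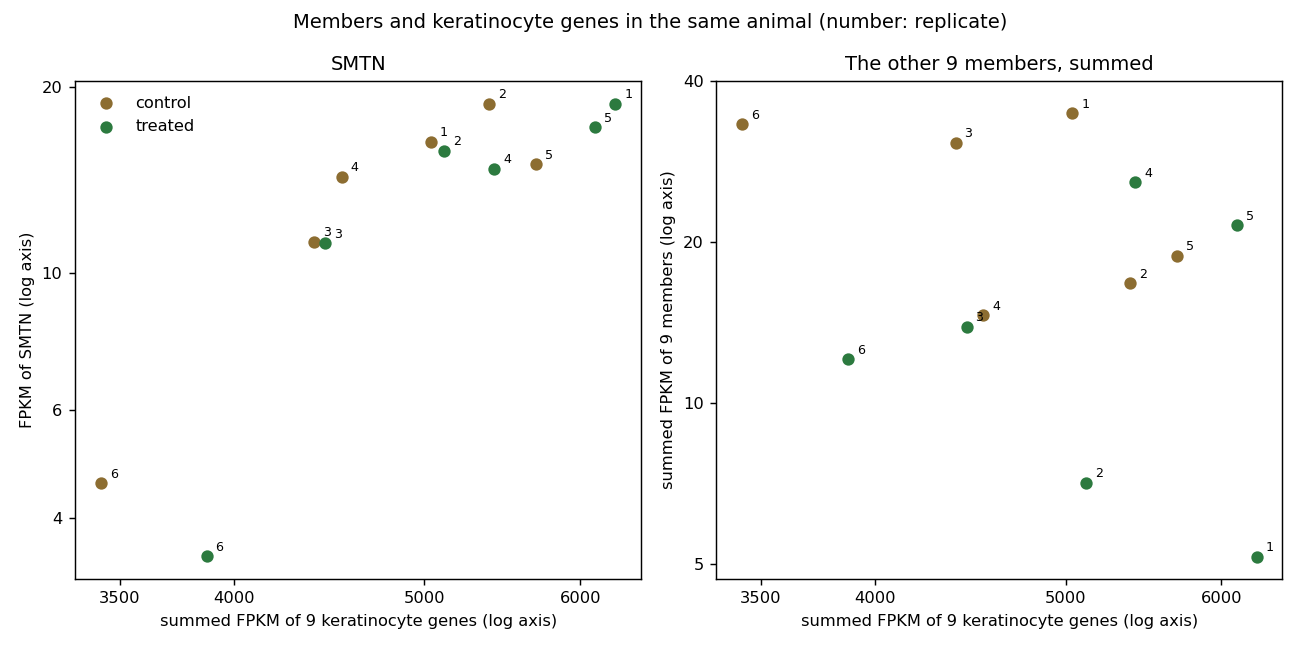
FPKM of SMTN (left) and summed FPKM of the other 9 genes (right) against the summed FPKM of 9 keratinocyte genes, all on log axes, with a point and replicate number for each of the 6 control and 6 treated animals. SMTN climbs with the keratinocyte sum from 3.47 FPKM in treated 6 to 18.8 FPKM, and the sum of the other 9 genes shows no such order, with its lowest value, 5.16 FPKM, in treated 1, where the keratinocyte sum is highest.

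The 10 genes tested that were most like SMTN over the 12 animals, a list added after its values were seen, had r from 0.974 to 0.985. In falling order of r they were LOC102392521, IGHMBP2, LASP1, HNRNPM, IRX3, MCM2, PPP2R5D, HSPB1, ARHGDIA and COL17A1. Many cell types express HNRNPM, MCM2, PPP2R5D and ARHGDIA, and COL17A1 is a collagen of the hemidesmosomes of basal keratinocytes. Without control 6 and treated 6 their r with SMTN was 0.706 to 0.857.

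The genes most like the mean of the 10 contractile genes, by the r of log2 FPKM with their mean z-score over 12 animals, were PODN (0.890), LHFPL6 (0.850), BBS9, LIN52, HACD4, THBS4, MYL9 (0.824), COL14A1, OGN and DACT1 (0.806). MYL9 encodes the regulatory light chain that MYLK phosphorylates, while PODN, OGN, THBS4 and COL14A1 encode proteins of the extracellular matrix. PODN was at 1.04 ± 0.364 FPKM in control and 0.486 ± 0.384 in treated animals (SD, n = 6 each), with a nominal limma p of 0.0113. Over the 12635 genes compared, members left out, the median r was 0.017, and 12 genes were above 0.8.

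The wider machinery of smooth muscle contraction was read from 6 lists, in which no gene had a nominal limma p below 0.05 in either direction. Values are log2 fold changes, treated minus control, with the limma p in parentheses. Among other filament genes, 3 of 5 tested had a lower mean in treated animals. MYL9 was at 2.22 ± 0.741 FPKM in control and 1.65 ± 1.18 in treated animals (SD, n = 6 each), and its log2 fold change of -0.66 had a limma p of 0.136. Caldesmon CALD1 was at -0.69 (limma p of 0.153) and tropomyosin TPM2 at -0.46 (0.180). MYL6, a light chain found in most cells, was at 605 and 630 FPKM, with a difference of 0.03 (0.826). MYL12A and MYL12B were not listed under these symbols.

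Among the genes of myosin phosphatase and calcium sensitisation, which set how long myosin stays phosphorylated, 5 of 8 tested had a lower mean in treated animals and 3 a higher one. PRKG1, the cGMP-dependent kinase that relaxes smooth muscle, was at -0.96 (limma p of 0.132), the phosphatase subunits PPP1R12A and PPP1R12C were at -0.09 (0.352) and 0.21 (0.391), and RHOA was at 0.11 (0.487). In the list of dense body, filament and adhesion partners, 10 of 13 tested had a lower mean. ITGA8, an integrin of smooth muscle and fibroblasts, was at -1.37 (0.137), vinculin VCL at -0.21 (0.214), filamin C FLNC at -0.57 (0.296) and PGM5, a protein of adherens junctions, at -0.61 (0.387). PRKG1 had 3 to 39 fragments per animal, ITGA8 1 to 187 and PGM5 7 to 175, so their fold changes depend in part on the 0.01 added.

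Calcium channels, pumps and receptors were split, with 4 of 7 tested lower in mean and 3 higher. ATP2B4, a calcium pump of the plasma membrane, was at 0.43 (limma p of 0.0924), the muscarinic receptor CHRM3 at 0.84 (0.144), the cGMP phosphodiesterase PDE5A at -0.40 (0.324) and phospholamban PLN at -0.55 (0.372). Regulators of the smooth muscle programme lay close to 0, with all 5 tested slightly lower in mean. SRF, the factor that binds the promoters of contractile genes, was at -0.07 (0.782), FOXF1 at -0.14 (0.806), TEAD1 at -0.05 (0.806) and MRTFA at -0.04 (0.898). MYOCD, the partner of SRF in smooth muscle, had at most 16 fragments in any animal and was not tested. Of 12 non-muscle relatives tested, 6 were lower and 6 higher in mean, with CNN3 at -0.21 (0.0676), TAGLN2 at 0.18 (0.407), SYNPO at 0.17 (0.578) and TPM3 at 0.07 (0.610).

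Markers of other cell types were read beside the contractile genes, and none of them had a nominal limma p below 0.05. The fibroblast genes moved in the same direction as the contractile genes, since all 8 had a lower mean in treated animals, with a median log2 fold change of -0.66. Their summed level was 46.6 to 293 FPKM in control and 20.9 to 183 FPKM in treated animals, with COL3A1 (-0.59), LUM (-0.88) and DCN (-0.73) the most abundant. Their r with the mean z-score of the contractile genes was 0.502 to 0.716 over 12 animals. Their part in the differences of the contractile genes was not tested.

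Among pericyte and vascular markers, 3 of 4 tested had a lower mean, with CSPG4 at -0.16, NOTCH3 at 0.06 and PDGFRB at -0.78, and summed levels of 11.1 to 27.0 FPKM in control and 11.0 to 22.6 FPKM in treated animals. Endothelial genes had a median of -0.10, with 5 of 6 lower, PECAM1 at -0.08, VWF at 0.07 and KDR at -0.26, and summed to 10.3 to 33.7 and 6.14 to 35.2 FPKM. Immune genes were lower in mean for 4 of 4 tested, with PTPRC at -0.13, CD3E at -0.26 and JCHAIN at -0.72, and summed to 16.1 to 36.1 and 10.9 to 33.3 FPKM. Keratinocyte genes were lower in mean for 3 of 9, with KRT5 at 0.08, KRT15 at 0.22 and DSG3 at -0.06, and KRT14 and KRT6A were not listed under these symbols. For interstitial cells of Cajal, neurons and glia, ELAVL4 and SOX10 had at most 3 fragments in every animal, UCHL1 had at most 8, and S100B (-0.49) and KIT (-0.34) were the 2 genes tested. The part of these cell types in the differences of the contractile genes was not tested.

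A score of 8 smooth muscle genes that are not among the 10 (MYL9, TPM1, TPM2, CALD1, PPP1R14A, SYNM, PDLIM3 and CSRP1) was used as a covariate, as a stand-in for muscle content that was not measured otherwise. Over 12 animals, r with the mean z-score of the 10 contractile genes was 0.824 for MYL9 but 0.247 for CSRP1, and PPP1R14A had at most 17 fragments. The log2 fold change of DES was then -0.67 (SE 0.35), with a limma p of 0.0766. For TAGLN it was -0.38 (0.139), for SYNPO2 -0.62 (0.215), for MYH11 -0.36 (0.248), for ACTA2 -0.23 (0.383), for MYLK -0.20 (0.435) and for SMTN -0.10 (0.824). With the score, none of the 7 members tested had a nominal limma p below 0.05, while 214 of the 12642 genes tested had one.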

How the data were processed

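Per the labels, total RNA of the ruminal wall of 12 buffaloes, 6 per group, was made into stranded libraries and sequenced in pairs of 150 bp. The authors trimmed reads with Trimmomatic 0.39, aligned them with STAR 2.5.2b to UOA_WB_1, counted them by strand with featureCounts 2.0.0 at a mapping quality of 30, and deposited FPKM. The tool and gene lengths behind the FPKM are not given in the sources used here. Of 16 columns, 4 match no sample label and were not used. FPKM are whole multiples of the value of 1 fragment within each gene (tolerance 0.001 fragment, all 22972 genes above 0), which gave the fragments behind each value; 3 fragments or fewer were treated as the floor. Genes were tested when 1 animal reached the threshold of TMM-scaled reads that the study's methods give for HTSFilter (12642 genes). limma 3.58.1 in R 4.3.3 (lmFit, eBayes with a trend) was run on log2(FPKM + 0.01), and p-values were adjusted after Benjamini and Hochberg across these genes. On this scale the fold change of a low gene depends on the 0.01 added, and is enlarged where animals are at 0. Exact permutation tests were two-sided over 924 assignments (smallest p 0.00216), and correlations used 100000 resamples over 12 animals. The exact p of single members and of ratios were not adjusted over the members. Other pseudocounts, filters, scalings, a replicate block, a muscle covariate, voom (chosen after seeing the data) and omission of each animal were tried. The members and gene lists were chosen with earlier results of these data known. Named beside the members were up to 4 genes of the smallest p per muscle list, the 3 of highest mean FPKM per cell type list and the 10 genes most like the members. Gene symbols are those of the deposited table; coordinates are not given, since the RefSeq table at hand is of another assembly (NDDB_SH_1). Python 3.11.15, numpy 2.4.6, scipy 1.17.1, pandas 2.3.3 and matplotlib 3.10.9 were used. Not every gene of these lists is reported here.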

Additional observations from a re-analysis of the deposited data

How the results depend on the processing

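Of the comparisons of single members with limma, DES kept its direction under every alternative run, and ACTA2, MYH11, TAGLN, MYLK and SYNPO2 were lower in treated animals under all of them. Under pseudocounts of 0.1 and 1, median ratio and upper quartile scaling, robust empirical Bayes and voom, DES remained the 1 member below 0.05. The number of members past nominal p was 3 with all genes above 0 and 3 under a filter of 0.1 FPKM reached by 6 or more animals (ACTG2 and CNN1 enter, being tested there), and, of the 7 members that passed the main filter, 0 by exact permutation test, 0 with the muscle score and 0 to 4 when animals were left out in turn. ACTG2 and CNN1, outside that filter, had an unadjusted exact permutation p of 0.0238 each. Of all genes tested, 219 passed by exact permutation test and 214 with the muscle score, against 157. With all genes above 0, nominal p was passed by 562 of 22972 genes, or 2.45%, against 1.24% in the main fit. Under the filter of 0.1 FPKM it was passed by 301 of 16450 genes. Omissions of 1 animal gave 142 to 325 genes. The median log2 fold change of the 10 ranged from -1.05 to -0.59 over these omissions and was -0.51 at a pseudocount of 1.

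Animals of both groups share replicate numbers in the sample descriptions but are different animals. The sample titles number control 6 and all treated animals otherwise, and the check and the block rest on the numbers of the descriptions. The deviations of same-numbered animals correlated between -0.0134 and 0.416 (mean 0.213, against -0.0394 for other numbers), 4 of 6 pairs were above 0.1, and 8 of 12 animals correlated best with their own number, a hint from the data and not the design. With the number as a replicate block, 322 genes in place of 157 had a nominal p below 0.05, DES had a limma p of 0.0347, and 1 member passed. The SE of SMTN was 0.11 there, in place of 0.42.

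SMTN turned to a higher mean in treated animals without control 1, 2, 4 or 5 (0.05, 0.09, 0.01 and 0.02) and without treated 6 (0.32), over a range of -0.32 to 0.32. Relative to the other members, DES turned to -0.13, -0.06, -0.13 and -0.16 without control 1, control 4, treated 2 or treated 6, over a range of -0.16 to 0.33, and to -0.16 and -0.26 with 0.1 and 1 in place of 0.01. With 1 added, ACTA2 turned to -0.12, MYH11 to -0.083 and TAGLN to -0.34, and with 0.1 added TAGLN turned to -0.045. On the same measure SYNPO2 turned to -0.21 and -0.0044 without control 5 or treated 1, over a range of -0.21 to 0.27. The r with the keratinocyte genes turned for ACTG2 to 0.023 in control and 0.124 in treated animals, for CNN1 to -0.037 in control animals and -0.091 without the 2 farthest animals, and for SYNPO2 to 0.497 in treated animals. None of these had passed a threshold. The turns with 0.1 or 1 added come with that change of the value alone, and the cause of the other turns was not tested. Most members rest on under 200 fragments per animal, and CNN1 and ACTG2 on under 40, which limits what could be seen. The floor of 3 fragments covers counting error only.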
